A study of Homo sapiens with 11 samples.

Results

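The probes described here are those that were higher on the arrays of all 5 common-seed duplexes than on their paired mock arrays in PC-3, an established line of human prostate cancer. They were selected on the measured values themselves. In the authors' table of log2 values, dsEcad640 and miR-302a were set against mock sample 1, miR-372 sample 10 against mock sample 9, miR-373 against mock sample 8 and miR-520c against mock sample 11, and a probe was taken when it stood 0.6 or more above the mock array in all 5 pairs and was marked well above background on the 5 arrays of the duplexes. Of 21375 probes with a value in the 5 pairs, 110 passed, which is 0.515%. The genes ANKRD1, ERBB4, IL1F7 and SCEL were set aside by the rule, which removed 1 of these probes, and the remaining 109 are called the members. They carry 98 names of genes or transcripts, out of 15995 with a probe in the 5 pairs, and RefSeq names 76 of these genes, while 22 probes are for transcripts or copies without such a name.

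All arrays came from PC-3 cells 24 h after transfection, and each of the 11 arrays was hybridised with 150 ng of RNA mixed from 4 transfections. The groups were mock cells, which received the reagent without a duplex (samples 1, 8, 9 and 11), dsEcad640, an siRNA fully complementary to the E-cadherin promoter (labelled dsEcad-640, sample 2), miR-302a (sample 3), miR-372 (samples 4 and 10), miR-373 (sample 7), miR-520c (sample 12) and miR-520f (sample 6, which carries the name miR-530f in its title alone). Set 1, on 1 slide, holds samples 1 to 4, set 2 holds samples 6 to 8 and set 3 holds samples 9 to 12. Since the transfections were mixed, the spread between them is not visible, and whether the mock arrays hold separate mixes is not given in the sources used here.

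A small RNA loaded into an Argonaute protein finds its targets mainly by its seed, the bases near its 5′ end, and lowers transcripts with a complementary site. The miRNAs of the rule belong to a family known from pluripotent stem cells that shares one seed, and dsEcad640 carries the same seed. Higher transcripts are not the direct outcome of this pairing, and the functions named below are therefore described as indirect effects, without a route from the duplex to the gene.

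The mature strands are shown because the seed defines which duplexes entered the rule. The sequences are those of RefSeq on GRCh38.p14, the capitals mark bases 2 to 8, and the strand named 3p is the one that carries the family's seed.
hsa-miR-302a-3p: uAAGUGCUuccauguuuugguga
hsa-miR-372-3p: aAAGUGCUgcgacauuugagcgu
hsa-miR-373-3p: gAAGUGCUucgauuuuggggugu
hsa-miR-520c-3p: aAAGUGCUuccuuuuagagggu
hsa-miR-520f-3p: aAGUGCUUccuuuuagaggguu
The 4 miRNAs of the rule had the same 7 bases in capitals. In miR-520f the same 7 bases began at base 1, so its own bases 2 to 8 were shifted by 1 base along an otherwise shared stretch. miR-520f and miR-372 sample 4 took no part in the choice of the members. Their mock arrays, samples 8 and 1, did take part, so the values below are not free of the choice.

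All 109 members were well above background on all 11 arrays, the mock arrays included. Their levels on the mock arrays were rather low for detected transcripts: the median member lay between the 31.7th and the 32.4th percentile of the 21375 probes on the 4 mock arrays, with members from the 0.0th to the 94.1st percentile. The cell line's markers were also checked. Probes for vimentin (VIM) and for KRT8 and KRT18 were well above background on the 4 mock arrays, and both probes for the leukocyte gene PTPRC were so on 0 of them. The 3 probes for KLK3, which encodes prostate-specific antigen, disagreed, being well above background on 0, 2 and 4 of the mock arrays.

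In the 5 pairs that chose them, the members' log2 changes averaged from 0.67 to 1.91 per probe, with a median of 1.04. These values chose the members and are given as a description, without a test. The members' median was 0.81 under miR-373, 0.91 under miR-302a, 0.97 under miR-372 sample 10, 1.07 under miR-520c and 1.23 under dsEcad640, and the median of all probes lay between −0.02 and 0.01 on these arrays. The pairs were not alike in strength. The highest of the 5 changes was found under dsEcad640 for 46 members and under miR-520c for 40, whereas the lowest was found under miR-373 for 50. In 14 members all 5 changes were 1 or more. At the other end, the members nearest to the threshold were probes for LOXL3 (lowest change 0.6), HOXA10 (0.601) and the keratin 8 copy LOC652524 (0.601), and just outside it lay a further HOXA10 probe (0.6 after rounding) and the keratin 18 copies LOC651696 (0.599) and LOC652370 (0.595). A further 93 probes had their lowest change between 0.5 and 0.6.

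The mock arrays of set 3 show how much 2 arrays without a duplex can differ. Mock samples 9 and 11 differed by 0.6 or more in 22 of the 109 members, beside 7.18% of all probes, and the median size of the difference was 0.23 over the members and 0.20 over all probes. In 8 members the miR-372 or the miR-520c array of this set lay below the higher of its 2 mock arrays: ADAMTS6, HOXB9, HOXC8, IL23A, the keratin 8 copy LOC652524, MMP13, SKAP1 and 1 of the STC2 probes. For these members the sign of a difference within set 3 rests on which mock array was paired with which duplex. This overlap was not counted over all probes. Reaching the threshold depended on the pairing in further members: with mock samples 9 and 11 exchanged, 71 of the 109 were still chosen.

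**Figure D1:**
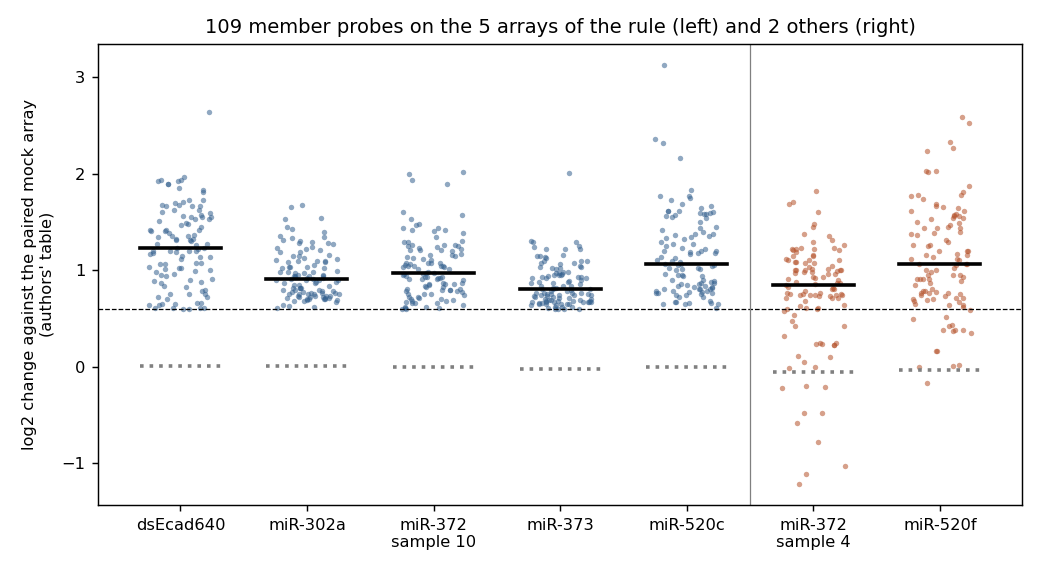
Log2 change of each of the 109 member probes (points) against the paired mock array in the authors' table, for the 5 arrays that chose them (left of the line) and for miR-372 sample 4 and miR-520f (right). Black bars are medians of the members, dotted bars medians of all 21375 probes and the dashed line is the threshold of 0.6; the members' medians on the 2 arrays outside the rule were 0.85 and 1.07, and 11 members lay below 0 on miR-372 sample 4 in this table.

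How well such a choice carries over was read on arrays that had no part in it. Probes were chosen at 0.6 or more in the pairs of 2 sets and then read on the arrays of the remaining set against a mock array of that set, so that neither the duplex arrays nor the mock arrays were shared. Mock RNA, or the RNA of both miR-372 arrays, could still come from one mix. Probes chosen on sets 2 and 3 reached 0.6 in 121 of 145 cases under dsEcad640 (83.4%, beside 4.54% of all probes), in 125 of 145 under miR-302a (86.2%, beside 2.15%) and in 101 of 145 under miR-372 sample 4 (69.7%, beside 4.44%). Probes chosen on sets 1 and 3 reached it in 109 of 179 cases under miR-373 (60.9%, beside 1.88%) and in 135 of 179 under miR-520f (75.4%, beside 5.02%). Probes chosen on sets 1 and 2 reached it in 126 of 150 cases under miR-372 sample 10 (84.0%, beside 5.07%) and in 124 of 150 under miR-520c (82.7%, beside 9.84%). On each of the 7 arrays the share of chosen probes was thus far above the share of all probes. Each comparison rests on 1 array against 1 mock array, so no test across arrays can be given, and duplexes read on the same slide against the same mock array share its error. All of these shares count duplex effects together with anything else that differs between transfection with a duplex and transfection without one, since no duplex with an unrelated seed was among the arrays.

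**Figure D2:**
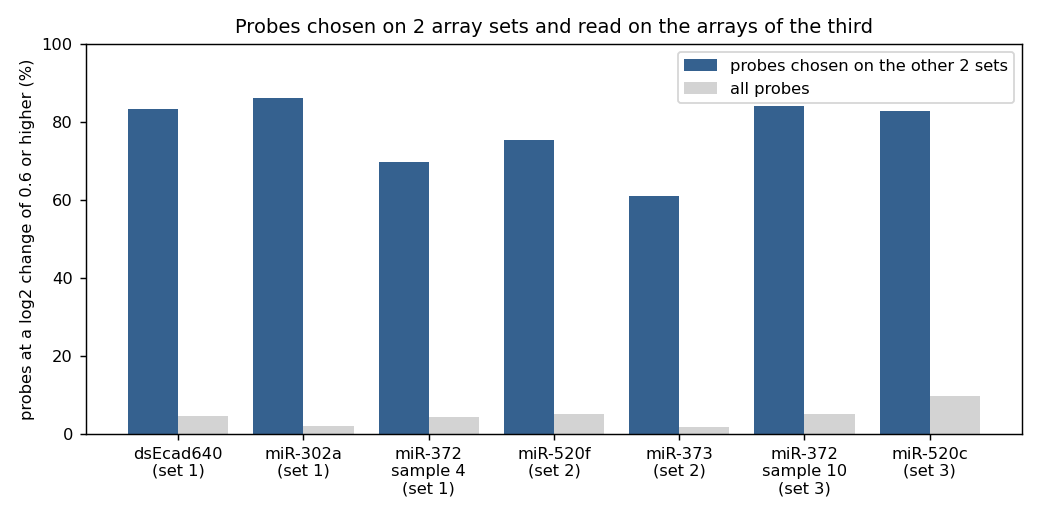
Share of probes at a log2 change of 0.6 or more on each array (vertical axis, percent) for probes chosen on the other 2 sets (dark bars) and for all probes (grey bars). The dark bars lie between 60.9% and 86.2% and the grey bars between 1.88% and 9.84%.

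On miR-520f, 93 of the 109 members reached 0.6, beside 5.02% of all probes, and the median change was 1.07. The change under miR-520f exceeded the highest of the 5 pairs in 24 members, beside 19.7% of all probes, and fell short of the lowest in 27, beside 23.5% of all probes, so members left the range of the 5 pairs about as often as other probes did. Compared with miR-373, an array of the rule on the same slide, 76 members were higher under miR-520f, with a median difference of 0.20, and of all probes 50.3% were.

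The members at the top of the range under miR-520f were ACVR2B (2.59), EGR2 (2.53) and the transcript BC010544 (2.33). ACVR2B encodes a type II receptor for activins. Its leading probe gave 6.28 on mock sample 1, 8.92 under dsEcad640, and 7.63 and 7.5 under miR-302a and miR-372 in set 1, 6.17 on mock sample 8, 7.39 under miR-373 and 8.76 under miR-520f in set 2, and 7.5 and 7.67 on mock samples 9 and 11, 9.07 with miR-372 and 9.84 with miR-520c in set 3. Every duplex array lay above every mock array of its own set, as the rule required within its 5 pairs. The mean change over the 5 pairs was 1.79 ± 0.60 (SD, n = 5 pairs), and the other 2 probes of the gene averaged 1.15 and 1.22.

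The members at the bottom under miR-520f were the transcript AY102069 (−0.17), AEN (−0.00), an exonuclease gene induced by p53, and the unnamed transcript THC2656841 (0.01), whose 5 pairs had averaged 1.27, 0.83 and 1.00. AEN gave 8.03, 8.94, 8.98 and 8.63 in set 1 on mock, dsEcad640, miR-302a and miR-372, and 8.25, 8.97 and 8.25 in set 2 on mock, miR-373 and miR-520f. The miR-520f array was thus at the level of its mock array, while the miR-373 array of the same slide was not. PDLIM2, the member with the highest lowest change over the 5 pairs, behaved in a like way. PDLIM2 encodes a protein with a PDZ and a LIM domain that takes part in the turnover of NF-kappaB and STAT proteins. It gave 7.64, 9.11, 9.30 and 9.25 in set 1, 7.66 on mock sample 8, 8.96 under miR-373 and 7.82 under miR-520f in set 2, and 8.60 and 8.92 on the mock samples, 10.02 with miR-372 and 10.51 with miR-520c in set 3. The change was therefore 0.16 under miR-520f against a mean of 1.49 ± 0.14 (SD, n = 5 pairs) in the pairs of the rule. Since PDLIM2 was chosen for being high in those pairs and miR-520f has 1 array, the difference was not tested.

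On miR-372 sample 4, the values depended on the table they were taken from. By the authors' table, 81 of the 109 members reached 0.6, beside 4.44% of all probes, with a median of 0.85, and 11 members lay below 0. In the scanner signals, scaled to the 75th percentile of the array, the threshold was missed by 4 members, the median was 1.03 and 0 members lay below 0. The same 11 probes ranged from 0.64 to 1.34 in the scanner signals. After quantile normalization of those signals 11 members were again below 0. With normexp background correction and quantile normalization the count was also 11. These need not be the same 11, since MMP13 was at 0.0 there and ZNF783 at −0.02. The 11 members were among the dimmest: their median percentile on mock sample 1 was 0.8 and their highest 9.9, whereas the other members had a median percentile of 35.9. Among all probes, ranked on mock sample 1 and cut into 4 equal groups, the change on sample 4 in the authors' table differed from that in the scanner signals by a median of −0.85 in the dimmest group and of 0.06 in the brightest. On the other 6 duplex arrays the medians of this difference lay between −0.14 and 0.11 in each group. The share of probes detected well above background was 88.1% on sample 4 and between 54.4% and 72.8% elsewhere. No direction can thus be given for these 11 members on sample 4.

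Among these 11 were COL4A6 (−1.22 in the authors' table, 1.03 in the scanner signals), EGR2 (−1.11 and 0.98) and FZD4 (−1.03 and 0.82). EGR2, a zinc finger transcription factor of the early response to growth factors, gave 4.98 on mock sample 1, 6.11 under dsEcad640, 5.78 under miR-302a and 3.88 under miR-372 in set 1 of the authors' table. In set 3 it gave 6.22 and 6.05 on the mock samples, 7.08 with miR-372 and 7.60 with miR-520c. The 2 miR-372 arrays therefore lay on opposite sides of their mock arrays in this table, and on the same side in the scanner signals. The highest members on sample 4 were SERPINB2 (1.82), AY102069 (1.71) and LOXL3 (1.69), and these were also high in the scanner signals, at 1.92, 2.14 and 2.09.

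**Figure D3:**
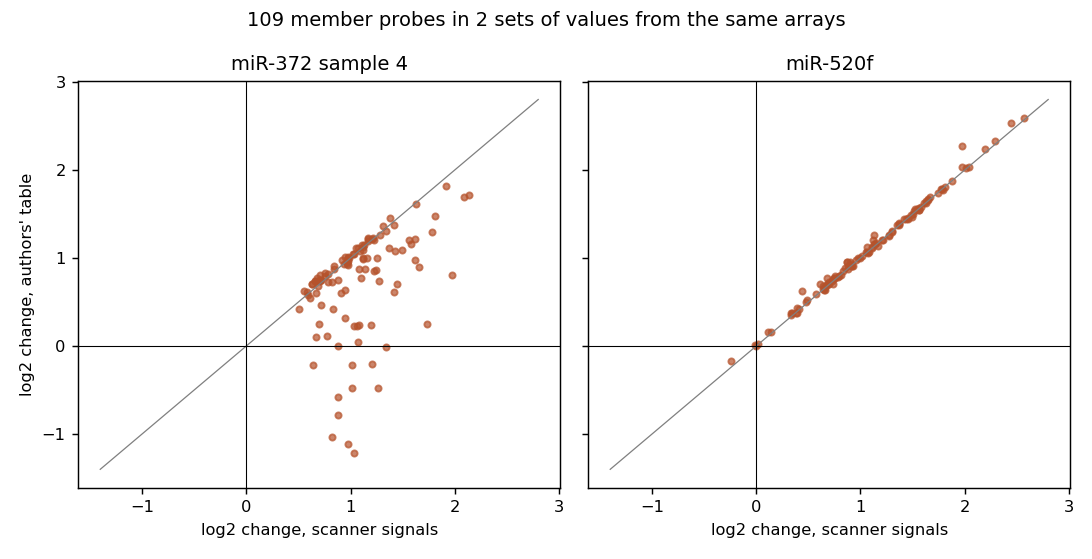
Log2 change of the 109 members in the authors' table (vertical axis) against the change in the scanner signals relative to the 75th percentile (horizontal axis), for miR-372 sample 4 (left) and miR-520f (right); the grey line marks equality. On sample 4, 11 members fall below 0 on the vertical axis alone, and on miR-520f the points lie along the line.

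The members were also grouped by what their genes are known to do, a grouping made after their values had been seen. It covers 82 of the 109 probes in 13 groups. On all 7 duplex arrays of the authors' table, 5 of which chose the members, 68 of the 109 members reached 0.6. Over all 21375 probes, 69 did (0.323%). A probe must pass the 5 pairs of the rule to be counted here. The share of all probes is therefore no separate background for the members.

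Among genes of the extracellular matrix and its enzymes were 8 probes for 6 genes, with means over the 5 pairs from 0.85 to 1.47. COL5A2 encodes a chain of type V collagen, a fibrillar collagen, and COL4A6 a chain of the type IV collagen of basement membranes. COL5A2 gave 10.09 on mock sample 1 and 12.02, 11.45 and 11.54 under dsEcad640, miR-302a and miR-372 in set 1, 10.12 on mock sample 8, 11.36 under miR-373 and 11.86 under miR-520f in set 2, and 11.30 and 11.45 on mock samples, 12.71 with miR-372 and 12.87 with miR-520c in set 3. No duplex array overlapped with a mock array of its set, which the rule had fixed for the 5 pairs. The fold of its mean change was 2.78, and a further COL5A2 probe averaged 0.96 ± 0.08 (SD, n = 5 pairs). MMP1 and MMP13 are collagenases whose genes lie in one cluster on chromosome 11, and the 2 probes lie 154270 bases apart on hg18. MMP1 gave 7.88 on mock sample 1, 9.61, 9.41 and 9.14 under the duplexes of set 1, 7.95 on mock sample 8, 8.92 under miR-373 and 9.73 under miR-520f, and 8.92 and 9.51 on the mock samples of set 3, 10.39 with miR-372 and 10.33 with miR-520c. The mock samples of set 3 differed by 0.58 in MMP1, and its lowest change, 0.82 under miR-520c, was taken against the higher of them. MMP13 was dim, with levels of 5.39 on mock sample 1 and 6.58 under both dsEcad640 and miR-302a, and its change on sample 4 was −0.01 in the authors' table and 1.34 in the scanner signals. ADAMTS6, a secreted metalloprotease, averaged 1.00, and LOXL3, an enzyme that crosslinks collagen and elastin, averaged 0.87 and was at 0.16 under miR-520f.

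Both serine protease inhibitors among the members belong to the clade B cluster on chromosome 18, with probes 248132 bases apart on hg18. SERPINB2, also called plasminogen activator inhibitor 2, gave 7.17 on mock sample 1 and 9.02, 8.45 and 8.99 under dsEcad640, miR-302a and miR-372 in set 1, 6.81 on mock sample 8, 7.74 under miR-373 and 8.12 under miR-520f in set 2, and 7.91 and 8.07 on mock samples, 9.91 with miR-372 and 10.43 with miR-520c in set 3. Its mean change of 1.69 ± 0.57 (SD, n = 5 pairs) was a fold of 3.22, with the lowest value, 0.93, under miR-373. SERPINB3, the squamous cell carcinoma antigen, averaged 1.16 and was highest under miR-520f at 2.24. SERPINB3 and its neighbour SERPINB4 are nearly identical, so their probes can take up each other's transcript. Outside the members, SERPINB4 was raised by 1.13 ± 0.21 (SE) in a limma fit of the 6 common-seed arrays against the 4 mock arrays that had the set as its block (adjusted p = 0.0307), but its adjusted p ranged from 0.0127 to 0.181 over 12 alternatives and it passed in 3.

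Of the ligands and their receptors, PDGFB, a chain of platelet-derived growth factor, gave changes between 1.17 and 1.41 in the 5 pairs, 1.21 on miR-372 sample 4 and 0.77 under miR-520f. Its 5 changes had an SD of 0.09, against a median SD of 0.25 over the members. NOG encodes noggin, a secreted antagonist of bone morphogenetic proteins, and averaged 1.19 ± 0.33 (SD, n = 5 pairs), although mock samples 9 and 11 differed by −0.96 in it. The Wnt pathway was present with the receptor FZD4 (0.75), with FRAT2, which binds the kinase GSK3 (0.89), and with NKD2, an inhibitor of Dishevelled (0.76). A further FZD4 probe averaged 0.71, whereas a further NKD2 probe ran from −0.38 to 2.08 over the 5 pairs. STC2, a secreted glycoprotein, was found by 2 probes (1.12 and 0.96), and PTX3, a soluble pattern recognition protein, averaged 1.04. IL23A, the p19 subunit of interleukin 23, gave 9.28 on mock sample 1, 10.96, 9.98 and 10.39 under dsEcad640, miR-302a and miR-372, 9.24 on mock sample 8, 9.95 under miR-373 and 10.68 under miR-520f. In set 3 IL23A gave 9.81 on mock sample 9 and 11.41 on mock sample 11, with 11.11 with miR-372 and 12.66 with miR-520c, so that miR-372 lay below one of the mock arrays of its own slide. Paired with mock sample 11 in place of 9, miR-372 would thus not have reached the threshold.

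Signalling proteins inside the cell gave 9 probes for 9 genes with means from 1.00 to 1.49. DUSP5 encodes a nuclear phosphatase of ERK and is induced by the pathway it limits. It gave 9.53 on mock sample 1 and 11.09, 10.65 and 10.68 in set 1 under dsEcad640, miR-302a and miR-372, 9.59 on mock sample 8, 10.51 under miR-373 and 10.23 under miR-520f, and 10.27 and 10.19 on the mock samples of set 3, 11.20 with miR-372 and 11.26 with miR-520c. The groups did not overlap within a set, which the rule had fixed for its 5 pairs. The change was 0.64 under miR-520f against a mean of 1.12. TRAF4, an adaptor of TNF receptor and TGF-beta signalling, averaged 1.19 ± 0.14 (SD, n = 5 pairs) and was at 1.00 and 1.44 on sample 4 and miR-520f. SGK1, a kinase induced by serum and glucocorticoids, averaged 1.00, TXK, a tyrosine kinase of the Tec family, 1.36, and SKAP1, an adaptor of T cells, 1.07. PHACTR3, a regulator of protein phosphatase 1 and actin, was even across the pairs as they were set, with changes from 1.1 to 1.29 and an SD of 0.07. In set 3 it gave 10.61 and 10.02 on mock samples 9 and 11, 11.82 with miR-372 and 11.21 with miR-520c. Its evenness thus rests in part on which mock array of set 3 was paired with which duplex.

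**Figure D4:**
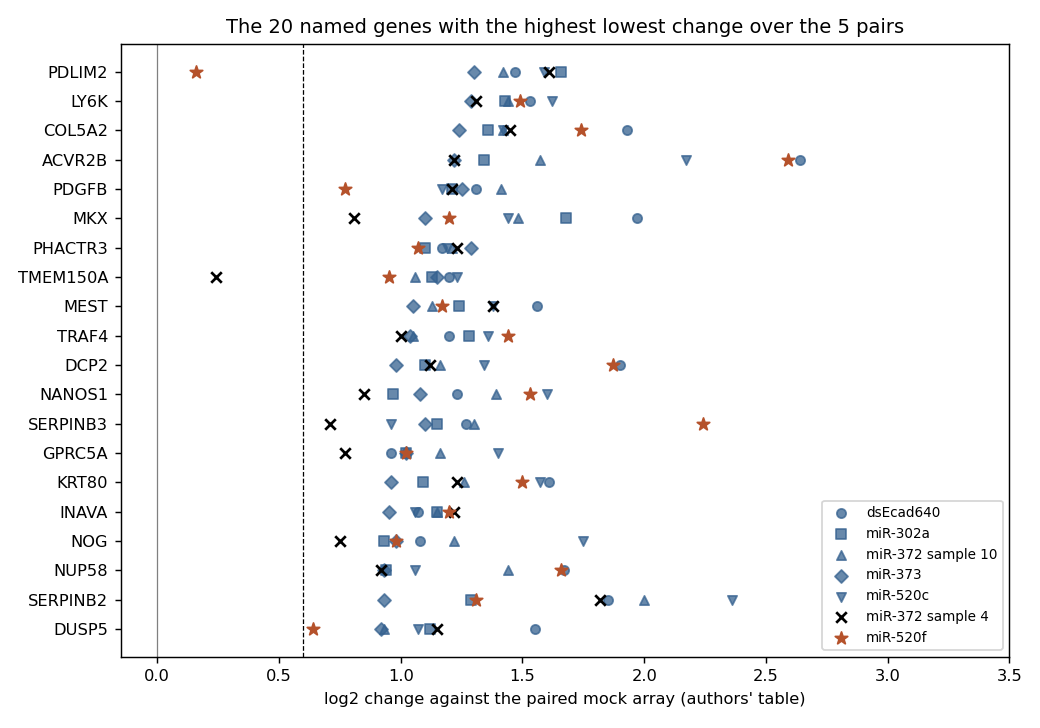
Log2 change against the paired mock array in the authors' table (horizontal axis) for the 20 named genes with the highest lowest change over the 5 pairs, 1 row a gene and the leading probe of each. Blue symbols are the 5 pairs of the rule, crosses miR-372 sample 4 and stars miR-520f; PDLIM2 is at 0.16 and SERPINB3 at 2.24 under miR-520f, and TMEM150A is at 0.24 on sample 4.

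Transcription regulators were divided into homeobox genes, with 7 probes for 6 genes or transcripts and means from 0.80 to 1.54, and others, with 6 probes and means from 1.02 to 1.30. The homeobox group held HOXA2, HOXA10, HOXB9 and HOXC8, which pattern the body axis, MKX, a regulator of tendon cells with 2 probes (1.54 and 1.41), and a transcript annotated as like HOXC13. HOXA2 and HOXA10 lie in the same cluster on chromosome 7, with probes 71216 bases apart on hg18. On sample 4 the homeobox group ranged from −0.58 to 1.29 in the authors' table, with HOXC8 at −0.58 and HOXA2 at −0.20, and in the scanner signals these were at 0.88 and 1.21. Under miR-520f the group ranged from 0.68 to 2.27. In the other group were KLF5, an epithelial factor (1.1), ARID3B, which binds AT-rich DNA (1.30), HIC2 (1.09) and the zinc finger genes ZNF138 (1.19) and ZNF783 (1.24). Further probes for HIC2, ZNF138 and ZNF783 averaged less, at 0.03, −0.07 and 0.34, whereas that for KLF5 averaged 0.85. ARID3B gave 8.77 on mock sample 1 and 10.70, 9.79 and 9.77 under dsEcad640, miR-302a and miR-372, 8.76 on mock sample 8, 9.60 under miR-373 and 10.30 under miR-520f. In set 3 it gave 9.53 and 9.74 on the mock samples, 10.56 with miR-372 and 11.41 with miR-520c. ARID3B was thus above the mock arrays of its set on all 7 duplex arrays.

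Genes of RNA fate, translation and nuclear transport gave 5 probes with means from 0.68 to 1.30. DCP2 removes the cap from mRNA in its decay, NANOS1 is a translational repressor of the germ line, EIF4EBP2 holds back the cap-binding factor eIF4E, NUP58 is a nucleoporin and XPO5 exports miRNA precursors from the nucleus. DCP2 averaged 1.30 ± 0.36 (SD, n = 5 pairs) and was at 1.87 under miR-520f. Further probes outside the members averaged less: 0.31 for DCP2, 0.09, 0.11 and 0.27 for EIF4EBP2, and −0.12 and −0.14 for NUP58. The values of these genes are thus those of 1 probe each. XPO5 had the lowest mean of this group, 0.68 ± 0.08 (SD, n = 5 pairs), and gave 8.00 on mock sample 1, 8.74, 8.70 and 8.42 under dsEcad640, miR-302a and miR-372, 8.02 on mock sample 8, 8.62 under miR-373 and 8.44 under miR-520f. Its changes on sample 4 and miR-520f were both 0.42, above 0 and below the threshold. TDG, a glycosylase that removes thymine and oxidised methylcytosine from DNA, was found by 3 probes (1.13, 0.98 and 0.94), which were at 1.81, 1.77 and 1.58 under miR-520f.

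At the cell surface, LY6K, a GPI-anchored antigen of testis and tumours, was found by 2 probes with means of 1.46 and 1.48. The leading one gave 7.80 on mock sample 1 and 9.32, 9.22 and 9.10 under dsEcad640, miR-302a and miR-372, 7.78 on mock sample 8, 9.07 under miR-373 and 9.27 under miR-520f, and 8.02 and 7.87 on the mock samples of set 3, 9.45 with miR-372 and 9.50 with miR-520c. The 7 duplex arrays gave changes between 1.29 and 1.62 in this probe. The orphan receptors GPRC5A and GPRC5B averaged 1.11 and 1.08, SIDT1, a membrane protein related to a worm RNA channel, 1.04, TMEM150A 1.16 and 1.20 by 2 probes, and LAYN, a hyaluronan receptor, 0.76. Of proteins of membrane traffic and polarity, PARD6B of the PAR polarity complex averaged 1.17, SNAP23, a SNARE of exocytosis, 0.87, and ARL14 and ARRDC4 0.96 and 1.18, and all of these were at 1.07 or more under miR-520f. The transporters SLC5A6, SLC37A2, SLC38A9 and SLC45A3 averaged 0.80, 0.94, 0.95 and 1.1.

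Keratins made up 9 member probes. Keratins 8 and 18 form the filament pair of simple epithelia, and KRT80 is a type II keratin of many epithelia. KRT80 gave 8.50 on mock sample 1 and 10.11, 9.58 and 9.72 under dsEcad640, miR-302a and miR-372, 8.57 on mock sample 8, 9.52 under miR-373 and 10.07 under miR-520f, and 9.35 and 9.62 on the mock samples of set 3, 10.61 with miR-372 and 11.19 with miR-520c. It averaged 1.30 and was at 1.5 under miR-520f. The other 8 probes were for KRT8 and for annotated copies of keratins 8 and 18, which are nearly identical to the parent genes and cannot be told from them with certainty. They are therefore counted as uncertain and as repeated readings of few transcripts.

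The array held 56 probes of this kind with a value in the 5 pairs, and their means ranged from 0.23 to 0.80. The 4 probes for KRT18 averaged from 0.53 to 0.70 and the 33 for its copies had a median of 0.69, of which 0 and 6 were members. The 2 probes for KRT8 averaged 0.80 and 0.43 and the 17 for its copies had a median of 0.59, of which 1 and 1 were members. The rule acts on the lowest of the 5 changes, and 8 of the 56 probes reached 0.6 in it. In the mean of the 5 pairs the ranges overlapped, since the members lay between 0.69 and 0.80 and the other probes reached 0.77. Under miR-520f the medians differed: the copies of keratin 18 had a median of 0.69 and those of keratin 8 a median of 0.19. Their ranges overlapped, running from 0.22 to 0.82 and from −0.04 to 0.91. The bright probe for KRT8 was at 0.39 and the KRT18 probes at −0.05, 0.73, 0.77 and 0.78. As these rest on 1 array and on probes that share transcripts, the difference was not tested.

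**Figure D5:**
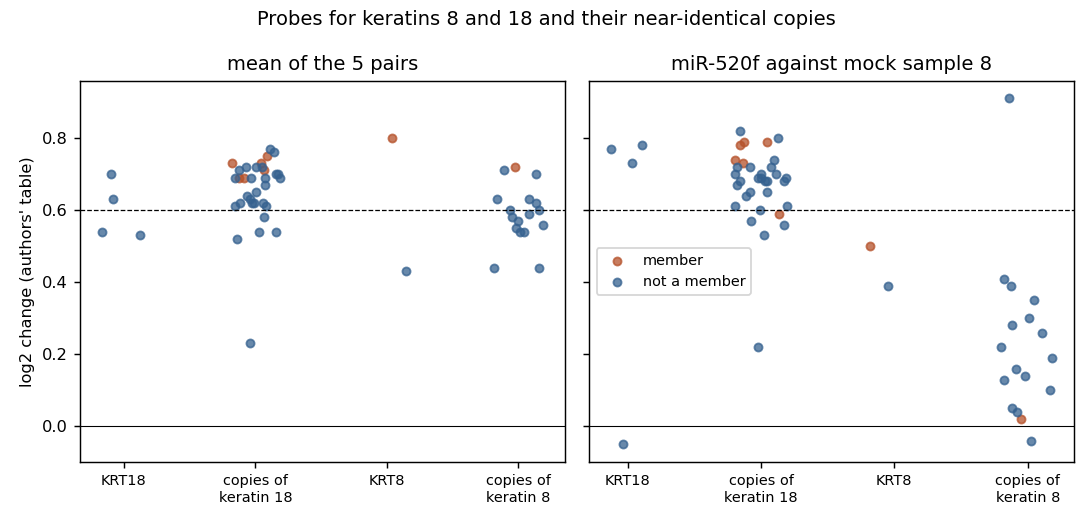
Log2 change in the authors' table (vertical axis) of 56 probes for KRT18, KRT8 and their annotated copies, as the mean of the 5 pairs (left) and under miR-520f (right), with members in orange and the dashed line at 0.6. In the 5 pairs the copies of keratins 18 and 8 have medians of 0.69 and 0.59, and under miR-520f of 0.69 and 0.19.

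Some unnamed members lay beside named ones on hg18. The transcripts BU943730 (chr12:12958192-12958251) and AW994037 (chr12:12959439-12959498) lie 1159 and 2406 bases from the GPRC5A probe (chr12:12956974-12957033) and averaged 1.66 and 0.93, against 1.11 for GPRC5A. BC018589 lies 3193 bases from the KRT8 probe on chromosome 12 and averaged 0.90. The C8orf58 probe lies 10130 bases from that of PDLIM2 on chromosome 8, and averaged 0.83. Under miR-520f the latter pair differed, with C8orf58 at 1.11 and PDLIM2 at 0.16. Whether such neighbours share a transcript was not tested.

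Several genes were read by more than 1 probe. The 9 genes with at least 2 member probes were ACVR2B, TDG, COL4A6, COL5A2, KLHDC3, LY6K, MKX, STC2 and TMEM150A. For 14 of the named member genes the table held 17 further probes that were not members. Of these, 10 were above 0 in all 5 pairs, beside 20.5% of all probes, and their means had a median of 0.31. The rule used the same arrays, so this count is a description. Further probes for FZD4 (0.71), HOXA10 (0.82), KLF5 (0.85) and SLC5A6 (0.76) were near the member probes. Those for NUP58 (−0.12 and −0.14, against 1.21), ZNF138 (−0.07 against 1.19), HIC2 (0.03 against 1.09) and EIF4EBP2 (0.09, 0.11 and 0.27, against 1.00) were not. Further probes for DCP2 (0.31 against 1.30), ZNF783 (0.34 against 1.24), SURF6 (0.31 against 0.80) and SREK1IP1 (0.50 against 1.01) were above 0 in all 5 pairs but lower than the member probe, and 1 for NKD2 ran from −0.38 to 2.08. For these 9 genes the values given here are those of the member probe.

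Promoters of the members were searched for the E-box to which the repressor ZEB1 binds and for the motif of AP-1, a factor that drives genes of proteases and of the early response. Promoters from 250 bases before to 50 bases after the gene start were found in the RefSeq table for 51 of the 76 named member genes. Since fewer than 80% were matched, the counts over the members stand beside the shares of all promoters as a description only. No enrichment or depletion was tested, and none is read from them. The E-box CAGGTG, or CACCTG on the other strand, was in 9 of the 51 promoters and in 20.6% of all 27305. The AP-1 motif TGANTCA was in 7 of the 51 and in 7.76% of all. The TEAD motif GGAATG, or CATTCC, was in 10 of the 51 and in 14% of all. A complement of the common seed in DNA letters, AGCACTT or AAGTGCT, was in 0 of the 51 and in 3.47% of all. A promoter with both motifs (IL23A, chr12:56338634-56338933), one with 3 E-boxes (MISP, chr19:750862-751161) and one with an AP-1 motif (SERPINB2, chr18:63887455-63887754) are printed as examples, from GRCh38.p14, on the + strand and 5′ to 3′, with letters of either motif in capitals.
IL23A: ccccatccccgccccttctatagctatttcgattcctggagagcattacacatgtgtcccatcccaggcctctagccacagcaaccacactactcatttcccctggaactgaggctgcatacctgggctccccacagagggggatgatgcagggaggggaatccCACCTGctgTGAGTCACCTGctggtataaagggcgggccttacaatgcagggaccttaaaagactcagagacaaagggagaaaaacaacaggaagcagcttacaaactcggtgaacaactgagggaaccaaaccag
MISP: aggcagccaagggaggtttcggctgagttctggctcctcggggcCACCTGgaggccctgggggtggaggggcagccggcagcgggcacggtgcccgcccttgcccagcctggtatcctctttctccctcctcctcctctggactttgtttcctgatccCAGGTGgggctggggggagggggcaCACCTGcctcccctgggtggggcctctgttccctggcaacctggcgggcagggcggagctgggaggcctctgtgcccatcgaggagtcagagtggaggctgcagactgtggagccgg
SERPINB2: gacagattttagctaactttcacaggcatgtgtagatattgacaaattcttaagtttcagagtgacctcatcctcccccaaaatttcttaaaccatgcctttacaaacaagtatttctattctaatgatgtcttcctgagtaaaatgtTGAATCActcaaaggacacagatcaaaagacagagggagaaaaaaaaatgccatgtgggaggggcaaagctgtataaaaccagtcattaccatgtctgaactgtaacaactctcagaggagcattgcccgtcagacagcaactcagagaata
In IL23A the AP-1 motif overlaps the second E-box. The match of letters is a description, and nothing follows from it about binding.

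Gene lists for pathways around these members were counted in the limma fit, which called 599 of 26960 probes raised (2.22%) and 563 lowered (2.09%) at an adjusted p under 0.05. The fit uses the arrays of the rule, and 92 of the 109 members were among the raised probes, a count the rule itself brings about. Members were chosen for being high on these arrays, so a member counted as raised in a list below says nothing about that list. Of 29 probes in the list of keratinocyte and squamous differentiation, 5 were raised, with a median of 0.12 beside 0.03 over all probes, and the members SERPINB2 and SERPINB3 and the set-aside SCEL were among them. Of 47 probes for matrix, integrin and protease genes, 3 were raised (the member MMP1, LAMA3 and PLAT) and 2 lowered (COL4A2 and PLAUR), with a median of 0.05. Over 12 alternatives LAMA3 passed in 2, PLAT in 3, PLAUR in 4 and COL4A2 in 7. Of 31 probes for feedback genes of the ERK pathway and EGF ligands, 2 were raised, and both are members (DUSP5 and EGR2), with a median of 0.09. Of 27 probes for epithelial genes repressed by ZEB1, 1 was raised, with a median of 0.16: the desmosomal gene PKP3, by 0.65 ± 0.10 (SE; limma adjusted p = 0.0148, and from 0.00129 to 0.131 over 12 alternatives). PKP3 lost the call without mock sample 1, without mock sample 8 and without the filter on dim probes.

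The remaining lists held no member. Of 38 probes for targets of YAP and TEAD, 1 was raised (ANKRD1, set aside by the rule) and 5 lowered, among them both probes for LATS2, a kinase of the Hippo pathway, by −1.24 each (limma adjusted p = 0.00298 and 0.00541, and up to 0.0502 over 12 alternatives). In the lists of interferon-response genes (39 probes), NF-kappaB and cytokine genes (25), p53 targets (26), NRF2 and metal response (33), cholesterol and fatty acid synthesis (37) and ATF4 and endoplasmic reticulum stress (29), 1 probe in each passed the limma test and it was lowered, and medians were −0.41, −0.32, −0.01, −0.12, 0.03 and −0.06. At an unadjusted p under 0.05, these lists held 0, 0, 4, 3, 6 and 3 higher probes and 2, 4, 2, 9, 2 and 1 lower ones. Over all 26960 probes of the limma fit, 5707 were under this unadjusted p in either direction. Counts at this p, those of the histone list included, are therefore given as a description, and no shift of a list is read from them. Of 28 histone probes 0 passed the limma test in either direction, and 1 was higher and 7 lower at an unadjusted p under 0.05. Of 31 probes for S phase and mitosis 1 was raised, CCNE1 (cyclin E1), by 0.74 ± 0.15 (SE; limma adjusted p = 0.0399, and from 0.011 to 0.217 over 12 alternatives). Without mock sample 1 the fit called 10 probes raised and 14 lowered in all, and 7 of the 92 raised members were among them. Mock sample 1 is the only mock array of set 1. With the set as a block, leaving it out also takes dsEcad640, miR-302a and miR-372 sample 4 out of the contrast. Most calls, of members and of other probes, were thus lost together with the comparison within set 1. One of the LATS2 probes and ANKRD1 passed in every alternative run for them, which were 12 and 10.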

How the data were processed

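RNA from 11 samples of PC-3 cells was measured on 1-colour Agilent whole human genome arrays, with probe coordinates on hg18. Scanner output deposited by the authors was made with Feature Extraction 10.5.1.1, and its processed signal is, per the file headers, an intensity after background subtraction within each array. The table deposited by the authors holds log2 values of the same arrays; its normalization is not given in the sources used here, its quartiles are equal within a set and not between sets, and it holds 25549, 21462 and 27191 probes for sets 1, 2 and 3. Changes were therefore taken within sets. The members and the gene lists were chosen with earlier results of these data known.

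The members were found by the rule in Python 3.11.15 with pandas 2.3.3. For the scanner values, outlier spots were dropped (52 to 209 an array), spots of a probe were averaged, and the array's 75th percentile was subtracted from log2 signals. No spot was saturated. limma 3.58.1 in R 4.3.3 compared the 6 common-seed arrays with the 4 mock arrays, with the set as a block, on 26960 probes well above background on at least 6 of 11 arrays, with Benjamini-Hochberg adjustment (6 residual degrees of freedom). On simulated data with 200 changed probes among 26912, this fit recovered 60% of log2 changes of 1 and 84% of changes of 2. The simulated noise was independent between arrays and probes, and each change was equal on all 6 common-seed arrays. Errors shared between probes and differences between duplexes were not simulated, so recovery in the real data can differ. The members' values in the 5 pairs are given without a test, since the rule used them; the fit covers all 109 members, but no p-value of a member is given.

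Named genes are the 20 with the highest lowest change over the 5 pairs, the members in a gene list, genes with 2 or more member probes, the 3 highest and 3 lowest members on miR-520f and on miR-372 sample 4, the 3 probes on each side of the threshold, and up to 2 other genes called in each list; further genes were named by role after their values were seen. Current symbols were taken from RefSeq by accession for 79 member probes and by symbol or synonym for 8. The number of arrays limits the precision, and since duplexes but miR-372 have 1 array, p-values measure the spread between these arrays alone. The alternatives were other normalizations, thresholds, filters and pairings, and leaving out each mock and miR-372 array.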

Additional observations from a re-analysis of the deposited data

Results flagged for a closer look

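In 7 of the 109 members, 1 of the 4 mock arrays stood apart from the other mock arrays in the scanner signals, by a gap that exceeded Dixon's 95% critical value for 4 samples when divided by their whole range. Chance flags about 1 in 20 groups, and 7 of 109 is near that share. The count was not made over all probes. The mock arrays come from sets 1, 2 and 3 and took part in the rule, so the critical value is a rough guide. The cases below are listed as values to treat with care. The gap over the range was 0.868 for SKAP1, 0.909 for HOXB9, 0.864 for PHACTR3, 0.836 for ARRDC4, 0.93 for IL23A, 0.865 for ARL14 and 0.888 for BC010544. Mock sample 11 was the array apart in SKAP1 (log2 signal −5.36 with the 75th percentile at 0, against −3.71, −3.92 and −3.89), in PHACTR3 (0.18 against 0.71, 0.80 and 0.74), in ARRDC4 (−2.83 against −3.59, −3.46 and −3.51), in IL23A (1.57 against 0.09, 0.06 and −0.03) and in ARL14 (−3.68 against −3.07, −3.02 and −2.98). Mock sample 9 was the array apart in HOXB9 (−2.17 against −3.38, −3.43 and −3.32) and in BC010544 (−3.37 against −3.94, −3.88 and −3.88). Both mock arrays belong to set 3.

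In 2 members the change under miR-520f had the sign opposite to that of the 5 pairs: −0.174 in AY102069 and −0.005 in AEN, the latter at the level of the mock array. miR-520f has 1 array, and the difference was not tested.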

How the results depend on the processing

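The number of probes chosen by the rule, 109, became 133 in the scanner signals relative to the 75th percentile (103 of them members), 115 after quantile normalization (98 members) and 55 after normexp background correction with quantile normalization (52 members). Thresholds of 0.5 and 1.0 gave 202 and 14 probes, and requiring detection on the mock arrays or not requiring it at all gave 109. Exchanging mock samples 9 and 11 gave 74, of which 71 were members, and leaving out 1 mock array gave 95 to 121. Without mock sample 1 or 8 the arrays were compared across sets, and 63 and 62 members were shared. With the mean of the 4 mock arrays 97 probes were chosen, 61 of them members, and with miR-372 sample 4 in place of sample 10 there were 91, 81 of them members. The median on miR-372 sample 4 was 0.85 and was 1.03 in the scanner signals, with 0.77 to 0.96 under the other normalizations and the mean of the mock arrays, and 0.93 to 1.00 without single mock arrays; on miR-520f it was 1.07, 0.80 with normexp and 1.02 to 1.09 without single mock arrays. The mean of the 5 pairs kept its direction in all 109 members under the 4 alternatives tried. The alternatives use the arrays that chose the members, so the rule largely brings this about. The mean moved by more than its SD over the pairs in 51 with normexp, in 8 with the mean of the mock arrays and in 4 in the scanner signals. Of probes chosen on the other sets, 89.3% and 68.0% reached 0.6 on miR-372 sample 4 and miR-520f in the scanner signals. With a threshold of 1.0 the shares were 88.9% on dsEcad640, 61.1% on miR-372 sample 4, 64.0% on miR-520f and 94.1% on miR-372 sample 10.

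The limma fit called 599 probes raised and 563 lowered. The counts were 176 and 217 without the set, 1022 and 1206 with normexp, 960 and 1048 in the authors' log2 table, 123 and 101 without the filter on dim probes and 1138 and 962 with detection on 11 arrays. Leaving out single mock or miR-372 arrays gave 10 to 817 raised and 14 to 1119 lowered, lowest without mock sample 1 in both cases. Gene list calls were 13 raised and 13 lowered, 8 and 6 without the set, and 29 lowered in the authors' log2 table. No paired analysis was possible because no replicate number is shared between the groups; arrays were matched by set instead, in the pairs and as the block of the fit. The causes of these shifts were not tested. Dim members carry the least certain values, as the brightness of a probe over background limits what a change can show.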
